A study of Homo sapiens with 12 samples.

Results

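The genes described here are 41 listed genes of glucose uptake, glycolysis and the hypoxia response. They were chosen by name from textbook roles, with earlier results of these data known. A gene counted as measured where a probe set was annotated to its symbol alone, and where several such probe sets existed the one with the highest mean over the 12 arrays was used. On this rule 37 of the 41 genes were measured, out of 18417 measured genes in all. PGAM1 was only on probe sets shared with another symbol, and SLC16A1, SLC16A3 and CA9 had no probe set in the annotation used, so these 4 were not analysed here.

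The study hybridised RNA of 2 human lymphoma cell lines to 12 single-colour arrays. The lines were U-H01, a Hodgkin lymphoma line, and HBL-1, a line of activated B-cell-like diffuse large B-cell lymphoma. All cells had been transduced with doxycycline-inducible short hairpins against RelB and cRel, subunits of the transcription factor NF-kB, and a share of every transduced population was kept without doxycycline. U-H01 gave 4 uninduced arrays and 4 labelled induced, in which replicates 1 and 2 are population B1 at time points 1 and 2 and replicates 3 and 4 are population B2 at time points 1 and 2. HBL-1 gave 2 uninduced and 2 induced arrays of 1 population, C, whose treatment labels read day 1 and day 2. The labels do not say which hairpin each population letter stands for, the treatment labels of B2 add Seq2, and no label names an oxygen level. Untransduced cells and cells given doxycycline without a hairpin were not analysed here, so every group, the uninduced ones included, carries a hairpin construct. Separate cultures within a group are not named in the labels, so a p-value here weighs array-to-array spread that may be technical.

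Glycolysis splits glucose into pyruvate, which is either reduced to lactate and exported or passed to the mitochondria. When oxygen falls, prolyl hydroxylases such as EGLN1 stop marking the HIF alpha subunits for destruction, and HIF then binds short hypoxia response elements and raises glucose transporters, glycolytic enzymes and genes of mitophagy, collagen hydroxylation and growth restraint. In lymphoma cells these genes are also under control of MYC, NF-kB and nutrient signals, so their RNA levels are not a measure of oxygen alone.

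Before the results, 3 facts about the arrays bear on all of them. The U-H01 arrays labelled induced stood as far from the uninduced U-H01 arrays as from the other cell line: Pearson correlations across all probe sets tested lay between 0.893 and 0.91 with uninduced U-H01, between 0.904 and 0.917 with HBL-1, and between 0.991 and 0.996 within groups. Neither hairpin target fell past the threshold: in U-H01 the labelled induced minus uninduced difference on the log2 scale was -0.15 for RELB (adjusted p = 0.209) and 0.20 for REL (adjusted p = 0.0721), and in HBL-1 it was -0.19 for RELB (adjusted p = 0.749) and -0.49 for REL (adjusted p = 0.123). The U-H01 values of RELB and REL pool populations B1 and B2, so a fall in 1 population alone could be missed. Cell identity markers moved with the U-H01 label too. TNFRSF8, which encodes the Hodgkin marker CD30, averaged 6.89 in uninduced and 11.59 in labelled induced U-H01, CD79A, a B-cell receptor subunit, 5.73 and 11.04, and CD38, a plasma cell marker, 4.58 and 11.19. Of the 5 measured plasma cell markers 4 rose and 1 fell, which was SDC1, with averages of 6.81 and 6.43. The Hodgkin Reed-Sternberg list as a whole did not follow TNFRSF8: of its 8 measured markers 3 rose and 4 fell. CD274, the gene of PD-L1, averaged 9.91 in uninduced and 4.11 in labelled induced U-H01, and FSCN1, an actin-bundling protein, 8.75 and 6.91. The mean over the list ran from 8.14 to 8.28 in uninduced and from 7.49 to 7.64 in labelled induced U-H01. MS4A1, the gene of CD20, stayed between 4.35 and 4.63 on all 8 U-H01 arrays and averaged 10.98 in uninduced HBL-1. The mean over 6 measured B-cell markers ran from 6.09 to 6.28 in uninduced and from 8.37 to 8.67 in labelled induced U-H01, against 10.18 to 10.21 in uninduced HBL-1. Of 8 measured myeloid markers 7 or 8 were below the array median in every group, and of 12 T and NK cell markers 9 or 10. Whether the labelled induced arrays are of the same cells as the uninduced ones is not settled by these data. Each U-H01 value below is therefore a difference between groups as labelled, with rose meaning higher and fell lower under the induced label, and an effect of doxycycline cannot be told apart from a difference in cell identity.

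Most of the measured genes lay above the array median. Array medians lay between 5.79 and 5.88 on the log2 scale, where a difference of 1 is a 2-fold change, and no measured gene had a group mean below the lower quartile of its arrays. In uninduced U-H01 only NDRG1 averaged below the array median, while SLC16A4, BNIP3, P4HA2, NDRG1 and EPAS1 did so in labelled induced U-H01. A fold that starts or ends at a low level is understated, since background adds to low signals.

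**Figure D1:**
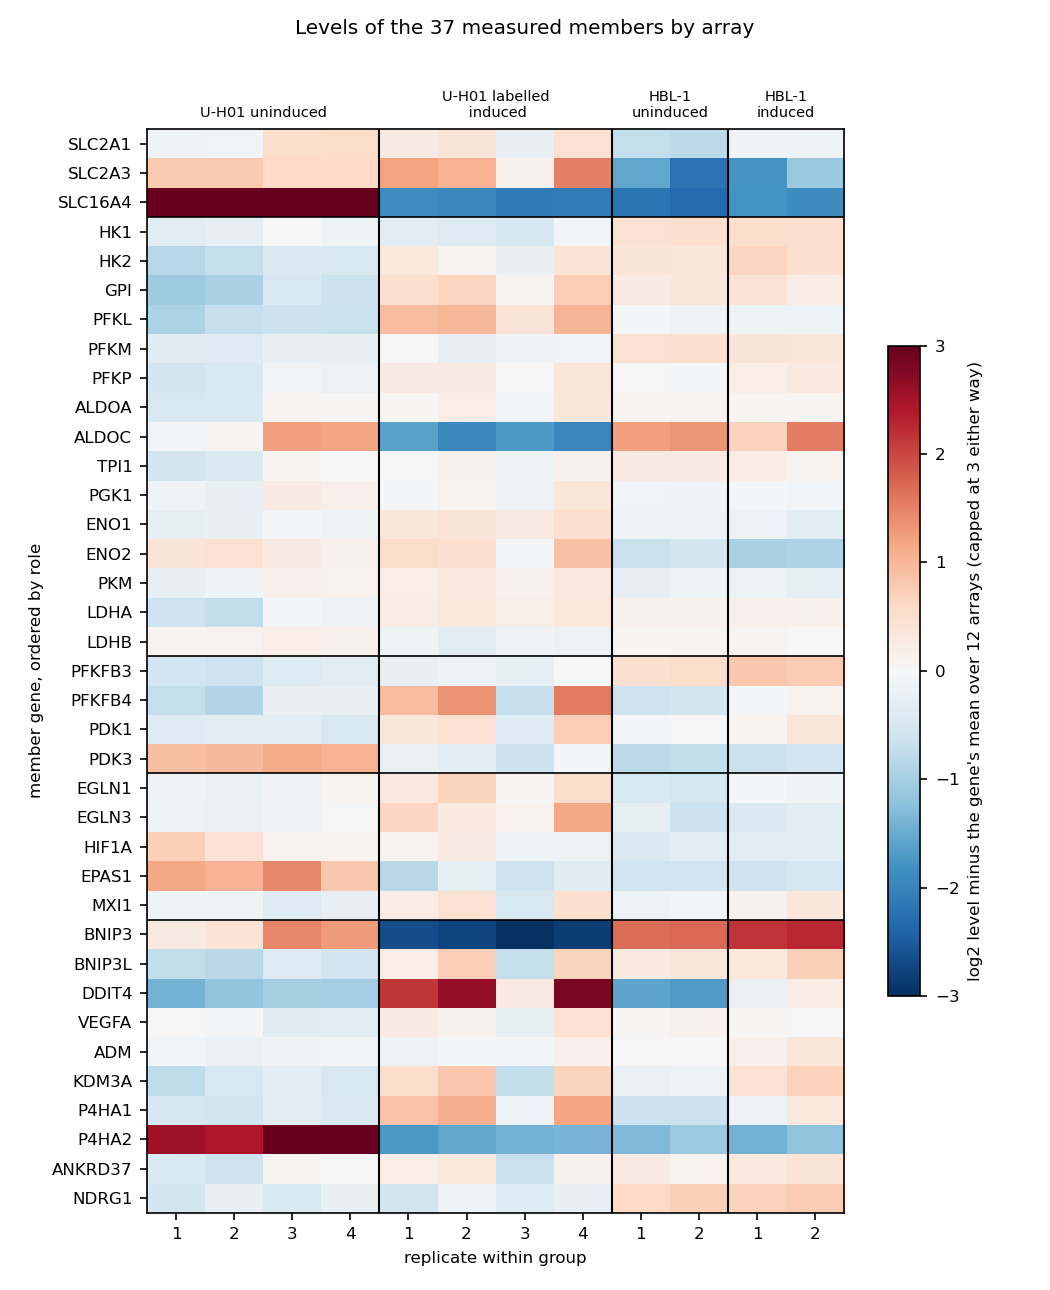
Log2 level of each of the 37 measured genes on each of the 12 arrays, minus that gene's mean over the 12 arrays, with colours capped at 3 either way; rows are ordered by role and columns by group and replicate. SLC16A4 and P4HA2 are high in uninduced U-H01 only, BNIP3 is low in labelled induced U-H01 only, and DDIT4 is high in labelled induced U-H01 with replicate 3 lower than the other 3 arrays.

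In U-H01, 18 of the 37 measured genes rose and 8 fell between uninduced and labelled induced arrays, and 11 did not pass an adjusted p of 0.05. Over all 18417 genes 45.8% passed, 22.3% higher and 23.5% lower, so a change by itself is common in this comparison. The median difference was 0.28 over the measured genes and 0.03 over all genes. The rises were led by DDIT4, PFKL, PFKFB4, GPI and P4HA1, and the falls by SLC16A4, P4HA2, BNIP3, ALDOC and EPAS1. In 10 of the 37 genes all labelled induced arrays lay above all uninduced ones, against 20% of all genes, and in 7 they lay below, against 21.1% of all genes.

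Among the 3 measured transporters 0 rose and 1 fell. SLC16A4, a member of the monocarboxylate transporter family, read 11.78, 11.68, 10.74 and 10.48 in uninduced replicates 1 to 4 and 5.23, 5.16, 4.98 and 5.0 in labelled induced replicates 1 to 4. The groups were separated by more than 5 log2 units, the widest gap among the 37 measured genes of glycolysis and the hypoxia response. It fell by 6.08 ± 0.15 (SE), which is 67.5-fold (adjusted p = 7.73e-12). SLC2A1, the gene of the basal glucose transporter GLUT1, read 9.27, 9.31, 9.91 and 9.94 uninduced and 9.64, 9.78, 9.16 and 9.86 labelled induced. The mean difference was 0.00 ± 0.16 (adjusted p = 0.995). Within B1 it was 0.42 ± 0.15 (adjusted p = 0.0458) and within B2 -0.42 ± 0.15 (adjusted p = 0.0495), and these differences did not differ from each other past the threshold (-0.83 ± 0.22, adjusted p = 0.13). Without labelled induced replicate 3 the B2 difference was -0.10 ± 0.13. Leaving out any other 1 array of B2 gave a B2 difference between -0.73 and -0.29. Without any 1 array of B1 the B1 difference lay between 0.30 and 0.54. Neither call was firm. The B2 call was lost without any 1 array but labelled induced replicate 4, and the B1 call without any 1 array of B1 or of HBL-1. SLC2A3, the gene of the high-affinity glucose transporter GLUT3, differed by 0.28 ± 0.24 (adjusted p = 0.377), with overlapping groups.

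Of the 15 measured glycolytic enzymes 8 rose, 2 fell and 5 did not pass. The rises spanned the upper and lower parts of the pathway and were mostly under 2-fold. PFKL, the liver-type subunit of phosphofructokinase, which commits sugar to glycolysis, rose 2.98-fold (1.57 ± 0.12, adjusted p = 2.28e-07). Its 4 uninduced arrays read 8.05, 8.30, 8.34 and 8.33 and its labelled induced arrays 9.92, 10.00, 9.38 and 10.02, with no overlap. The other phosphofructokinase genes moved less: PFKP, the platelet type, rose by 0.53 ± 0.11 and PFKM, the muscle type, differed by 0.20 ± 0.08 (adjusted p = 0.0613). GPI, which turns glucose 6-phosphate into fructose 6-phosphate, read 10.31, 10.41, 10.89 and 10.73 uninduced and 11.86, 12.02, 11.45 and 12.12 labelled induced. The groups did not overlap, and GPI rose 2.43-fold (1.28 ± 0.14, adjusted p = 9.54e-06).

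HK2, the inducible hexokinase that traps glucose in the cell, rose by 0.78 ± 0.14, and HK1, the constitutive form, differed by -0.16 ± 0.10 (adjusted p = 0.231). LDHA, which makes lactate from pyruvate, rose by 0.65 ± 0.12, ENO1, an enolase, by 0.54 ± 0.08, ALDOA, the main aldolase, by 0.33 ± 0.12 and PKM, pyruvate kinase, by 0.26 ± 0.09. ALDOC, the aldolase best known from brain, went the other way: uninduced arrays read 7.72, 7.89, 9.04 and 8.99 and labelled induced arrays 6.20, 5.86, 6.07 and 5.85. It fell by 2.41 ± 0.22, which is 5.33-fold (adjusted p = 1.29e-06), and within the uninduced group the B2 arrays were more than 1 unit above the B1 arrays. LDHB, the lactate dehydrogenase subunit favoured by oxidative tissues, fell by 0.32 ± 0.08. TPI1, PGK1 and ENO2 differed by 0.27, 0.06 and 0.16, with adjusted p-values of 0.0838, 0.739 and 0.415. The calls of the small rises were not firm. ALDOA missed the threshold without uninduced or labelled induced replicate 1, 2 or 4 (adjusted p up to 0.142). PKM missed it without uninduced replicate 1, 2 or 4 or labelled induced replicate 1 or 2, with quantile normalization (adjusted p = 0.23) and with arrays blocked by pair (adjusted p = 0.0525).

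All 4 regulators of flux passed, 3 higher and 1 lower. PFKFB4, which sets the level of the phosphofructokinase activator fructose 2,6-bisphosphate, read 6.80, 6.64, 7.29 and 7.29 uninduced and 8.46, 8.87, 6.84 and 9.08 labelled induced. It rose 2.48-fold (1.31 ± 0.34, adjusted p = 0.00671), yet the groups overlapped, because replicate 3 lay within the uninduced range. Its relative PFKFB3 rose by 0.33 ± 0.08. The pyruvate dehydrogenase kinases, which hold pyruvate back from the mitochondria, split: PDK1 rose by 0.67 ± 0.16 and PDK3 fell by 1.32 ± 0.11 (2.49-fold, adjusted p = 6.79e-07). PDK3 read 8.42, 8.51, 8.63 and 8.57 uninduced and 7.32, 7.21, 6.88 and 7.46 labelled induced, without overlap.

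Among the 5 genes of oxygen sensing and HIF-linked transcription 3 rose and 2 fell, and both HIF alpha genes were among the falls. HIF1A read 10.27, 10.00, 9.66 and 9.66 uninduced and 9.65, 9.82, 9.41 and 9.38 labelled induced. The ranges overlapped and the fall was small (-0.33 ± 0.09, adjusted p = 0.00661). EPAS1, the gene of HIF-2 alpha, read 7.09, 6.99, 7.37 and 6.75 uninduced and 5.10, 5.65, 5.32 and 5.58 labelled induced. These groups did not overlap, and EPAS1 fell 3.11-fold (-1.64 ± 0.15, adjusted p = 1.02e-06). The hydroxylases EGLN1 and EGLN3, which are HIF sensors and themselves HIF targets, rose by 0.48 ± 0.11 and 0.68 ± 0.18, and MXI1, a MYC antagonist, by 0.39 ± 0.13. MXI1 missed the threshold without uninduced replicate 2 or 4 or labelled induced replicate 1, 2 or 4 (adjusted p up to 0.129), and HIF1A in a model of the 4 groups alone (adjusted p = 0.0527). HIF activity is set mainly by protein stability, which RNA levels do not show.

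Of the 10 other measured hypoxia targets 4 rose, 2 fell and 4 did not pass. DDIT4, also called REDD1, restrains the growth kinase complex mTORC1 in hypoxia and other stress and showed the largest rise. It read 5.95, 6.17, 6.36 and 6.32 uninduced and 9.51, 9.99, 7.63 and 10.19 labelled induced. All 4 labelled induced arrays were above all 4 uninduced ones, with replicate 3 the lowest of the labelled induced arrays. The rise was 8.74-fold (3.13 ± 0.35, adjusted p = 9.1e-06).

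P4HA1 and P4HA2 encode alternative catalytic subunits of collagen prolyl 4-hydroxylase and moved in opposite directions. P4HA1 read 8.79, 8.75, 8.99 and 8.87 uninduced and 10.16, 10.37, 9.14 and 10.50 labelled induced, and rose 2.29-fold (1.20 ± 0.21, adjusted p = 0.000454). P4HA2 read 8.59, 8.48, 9.12 and 9.15 uninduced and 4.32, 4.48, 4.64 and 4.65 labelled induced, and fell 19.8-fold (-4.31 ± 0.09, adjusted p = 1.95e-12). Neither pair of ranges overlapped. The mitophagy receptors BNIP3 and BNIP3L split likewise. BNIP3 read 7.68, 7.81, 8.87 and 8.68 uninduced and 4.75, 4.65, 4.44 and 4.56 labelled induced, a 12.6-fold fall without overlap (-3.66 ± 0.20, adjusted p = 9.15e-09). BNIP3L read 8.31, 8.20, 8.62 and 8.47 uninduced and 9.24, 9.79, 8.32 and 9.72 labelled induced, and rose by 0.87 ± 0.23 (adjusted p = 0.00718), with replicate 3 inside the uninduced range. KDM3A, a histone demethylase, rose by 0.82 ± 0.23. VEGFA, the angiogenic growth factor, differed by 0.32 ± 0.13 (adjusted p = 0.0541, and 0.0347 with arrays blocked by pair), and ADM, ANKRD37 and NDRG1 by 0.11, 0.25 and 0.04, with adjusted p-values of 0.336, 0.375 and 0.729.

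The direction of both members was counted over 14 pairs of paralogues among the measured genes. In 5 pairs both members passed in opposite directions in U-H01: ALDOA and ALDOC, LDHA and LDHB, PDK1 and PDK3, BNIP3L and BNIP3, and P4HA1 and P4HA2. In each of them the member that fell is named last, and the first pair rests on the ALDOA call that was not firm. In 4 pairs both passed in the same direction. Between the uninduced lines 0 of the 14 pairs were opposite and 5 the same. Between labelled induced U-H01 and uninduced HBL-1 3 were opposite and 3 the same. The opposite pairs P4HA1 with P4HA2 and PFKFB3 with PFKFB4 rest on calls of P4HA2 and PFKFB4 that were not firm. P4HA2 lost its call in 11 of 18 alternatives and averaged below the array median in both groups. PFKFB4 lost its call in 7 of 19 alternatives. No like count over other gene families was made, and 22.3% of single genes were higher and 23.5% lower in U-H01.

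**Figure D2:**
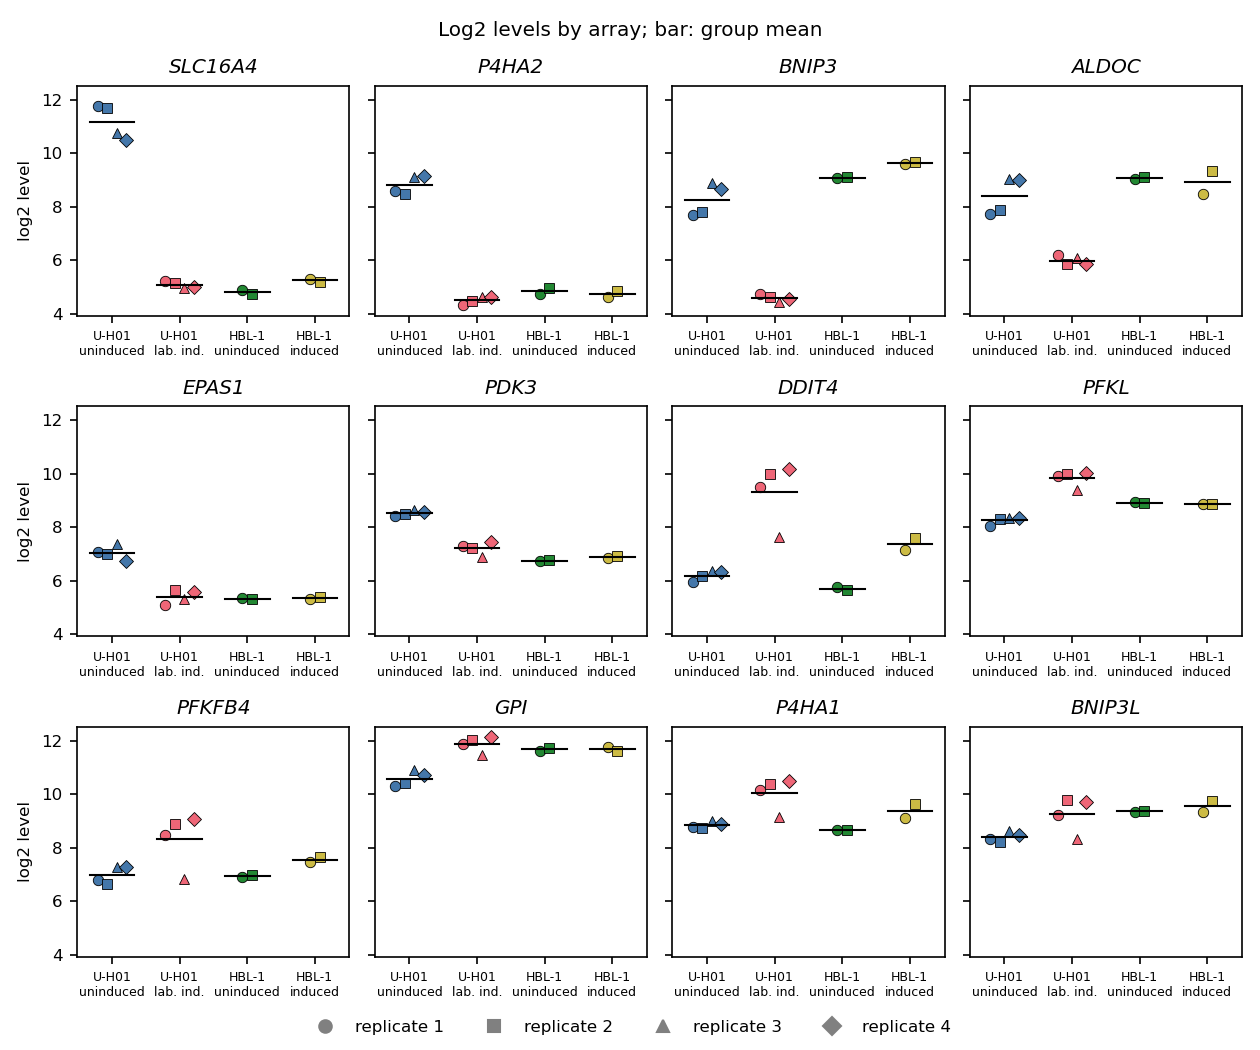
Log2 levels of 12 genes on each array, by group, with marker shape giving the replicate and a bar at the group mean (4 arrays in each U-H01 group, 2 in each HBL-1 group). The top row and EPAS1 and PDK3 fall from uninduced to labelled induced (lab. ind.) U-H01. In DDIT4, PFKFB4, P4HA1 and BNIP3L the triangle of labelled induced replicate 3 lies apart below the other 3 arrays.

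The promoters of DDIT4 and SLC16A4, the largest rise and the largest fall, and of P4HA1 and BNIP3, a rise and a fall among direct hypoxia targets chosen after their values were seen, are shown for their content of the hypoxia response element core. Each is the 250 bases before the RefSeq start in GRCh38.p14, read 5′ to 3′ along the gene: DDIT4 at chr10:72273674-72273923 (plus strand), P4HA1 at chr10:73096867-73097116 (minus), BNIP3 at chr10:131981924-131982173 (minus) and SLC16A4 at chr1:110391027-110391276 (minus). Capitals mark the core ACGTG or GCGTG on either strand.
DDIT4: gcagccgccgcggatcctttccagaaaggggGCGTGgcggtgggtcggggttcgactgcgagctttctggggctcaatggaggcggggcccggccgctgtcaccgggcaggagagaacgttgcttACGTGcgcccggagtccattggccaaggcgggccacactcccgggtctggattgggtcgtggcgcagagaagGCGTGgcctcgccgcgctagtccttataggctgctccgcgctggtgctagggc
P4HA1: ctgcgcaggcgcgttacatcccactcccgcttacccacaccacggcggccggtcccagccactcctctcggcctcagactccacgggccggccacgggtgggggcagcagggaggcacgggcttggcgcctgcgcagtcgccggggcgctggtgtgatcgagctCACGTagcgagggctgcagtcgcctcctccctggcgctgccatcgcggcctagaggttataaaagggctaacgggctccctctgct
BNIP3: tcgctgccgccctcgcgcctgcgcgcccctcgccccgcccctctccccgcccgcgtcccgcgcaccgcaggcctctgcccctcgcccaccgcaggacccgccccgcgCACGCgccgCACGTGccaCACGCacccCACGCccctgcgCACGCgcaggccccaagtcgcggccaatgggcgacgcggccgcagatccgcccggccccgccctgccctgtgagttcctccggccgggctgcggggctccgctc
SLC16A4: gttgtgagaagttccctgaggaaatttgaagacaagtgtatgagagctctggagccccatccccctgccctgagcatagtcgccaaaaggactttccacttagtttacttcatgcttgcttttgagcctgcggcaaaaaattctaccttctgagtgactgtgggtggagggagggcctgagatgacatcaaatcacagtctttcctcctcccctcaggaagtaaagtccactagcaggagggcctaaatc

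The DDIT4 window held 3 core matches, beginning at positions -219, -125 and -53 from the start, the P4HA1 window 1, the BNIP3 window 6 and the SLC16A4 window 0. The BNIP3 matches include CACGTG, a palindrome that also is the E-box of MYC and related factors and that counts as a core on both strands. BNIP3 fell and DDIT4 rose in the same arrays. P4HA1 and BNIP3 were chosen as a rise and a fall, so these 4 windows cannot show whether matches go with direction. That was not tested over the measured genes. RefSeq windows were matched for 33 of the 37 measured genes, with BNIP3L, NDRG1, SLC2A3 and VEGFA unmatched. A core was in 59.3% of the 59 windows of these genes and in 43.2% of all 35116 windows, and CACGTG was in 11.9% and 6.34%. The windows of these genes were richer in G and C, with a median of 68.4% against 58%, and among windows of 60% or more the core was in 73.2% against 59.4%. A match describes letters, not a bound site.

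Labelled induced replicate 3, population B2 at time point 1, was the lowest of the 4 labelled induced arrays in 29 of the 37 measured genes, against 25.2% of all genes. Replicate 4, the same population at the other time point, was the highest in 25, against 25% of all genes. The median of replicate 3 minus the mean of the other 3 arrays was -0.31 over the measured genes and 0.00 over all genes. It was more than 1 unit below each of the other 3 in 4 of the 37 genes, DDIT4, PFKFB4, P4HA1 and KDM3A, and in 12 of all 18417. Across all probe sets tested the array correlated with the other 3 at 0.992 to 0.993, as arrays within a group did. The 8 genes in which it was not lowest were ADM, ALDOC, EPAS1, HIF1A, LDHB, NDRG1, P4HA2 and PFKM. All 8 of these either fell or did not pass in this comparison.

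**Figure D3:**
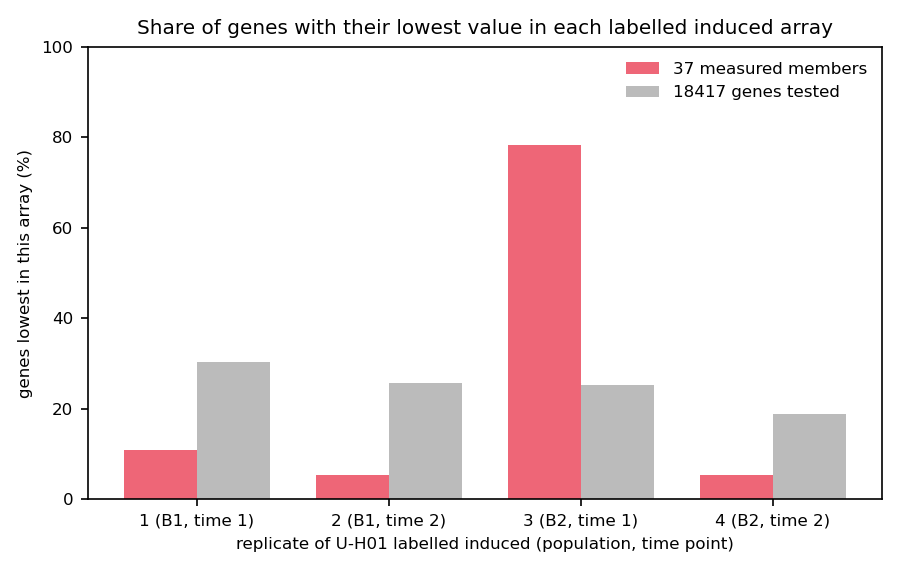
Share of genes (%) that have their lowest log2 value among the 4 labelled induced U-H01 arrays in each replicate, for the 37 measured genes and for all 18417 genes. Replicate 3 holds the lowest value in 29 of the 37 genes, while over all genes its share is 25.2%.

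Replicate 3 was singled out for low values in these same genes. Its removal therefore had to raise most of their differences, and it narrows the spread where that array lay apart. The calls and p-values without it are no separate support for the rises. Leaving that array out raised the number of genes called in U-H01 from 26 to 30, 22 higher and 8 lower, which is 81.1% against 43.2% of all genes. SLC2A3, TPI1, VEGFA and ANKRD37 were the genes gained. DDIT4 then rose 13.1-fold (3.71 ± 0.12, adjusted p = 3.96e-10). PFKFB4 rose by 1.87 ± 0.11, P4HA1 by 1.52 ± 0.11, BNIP3L by 1.21 ± 0.13 and KDM3A by 1.18 ± 0.11. The large falls moved little, to -6.16 for SLC16A4, -4.27 for P4HA2, -3.47 for BNIP3 and -1.58 for EPAS1.

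The 2 uninduced populations of U-H01 also differed in these genes. Both B2 arrays lay above both B1 arrays in 27 of the 37 measured genes, against 26.7% of all genes, and below in 6, against 25.1%. Among glycolytic enzymes this held in 14 of 15. In a test of B2 against B1 in uninduced cells, added after the data were seen, 7 genes were higher and 1 lower in B2. Of all genes 3.3% passed, 0.831% higher and 2.47% lower. ALDOC was higher by 1.20 ± 0.17 (adjusted p = 0.00428), BNIP3 by 1.03 ± 0.12 (adjusted p = 0.00177), SLC2A1 by 0.63 ± 0.15, P4HA2 by 0.60 ± 0.11, LDHA by 0.59 ± 0.11, and ALDOA and TPI1 by 0.52 ± 0.12 each. SLC16A4 was lower (-1.12 ± 0.11, adjusted p = 0.000961). Each population has 2 uninduced arrays, 1 for each time point, so population and culture cannot be told apart. The number called dropped to 2 without uninduced replicate 1 or 4, to 3 without uninduced replicate 2 or 3, and to 5 without any 1 of the HBL-1 arrays, which add to the shared estimate of spread. BNIP3 and SLC16A4 passed whichever array was left out.

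The labelled induced minus uninduced difference itself differed between B2 and B1 in 3 genes, 1 higher and 2 lower, against 0.586% of all genes, 0.358% higher and 0.228% lower. SLC16A4 fell by 6.53 ± 0.11 in B1 and by 5.62 ± 0.11 in B2, a difference of 0.91 ± 0.16 (adjusted p = 0.0268). BNIP3 fell by 3.04 ± 0.12 in B1 and by 4.27 ± 0.12 in B2 (difference -1.23 ± 0.17, adjusted p = 0.0122), and ALDOC by 1.78 ± 0.17 and 3.05 ± 0.17 (difference -1.27 ± 0.24, adjusted p = 0.0427). In all 3 the labelled induced levels of B1 and B2 lay within 0.4 units of each other while the uninduced levels lay about 1 unit apart. SLC16A4 and BNIP3 averaged below the array median in labelled induced U-H01. This test also shares its uninduced arrays with that of B2 against B1 in uninduced cells, so the tests are not independent. The count went to 0 without uninduced replicate 1 or 3, to 1 without uninduced replicate 2 or 4 or labelled induced replicate 1 or 2, and to 6 without labelled induced replicate 4. BNIP3 missed the threshold without uninduced replicate 1 or 3 (adjusted p up to 0.0764), ALDOC without any 1 of the U-H01 arrays, and SLC16A4 without any 1 array but labelled induced replicate 3. Between time points 2 and 1 in U-H01 0 of the 37 genes and 0 of all genes passed in limma. At an unadjusted p under 0.05 there were 4 of the 37 genes and 1422, or 7.72%, of all genes.

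In HBL-1, 0 of the 37 measured genes passed between induced and uninduced arrays in limma, and 0.603% of all genes did, 0.418% higher and 0.185% lower. At an unadjusted p under 0.05 there were 6 of the 37 genes and 9.74% of all genes. With 2 arrays a group the intervals are wide. Both induced arrays lay above both uninduced arrays in 18 of the 37 genes, against 19.7% of all genes, and below in 5, against 21.6%. Among the 15 glycolytic enzymes 4 were above and 5 below.

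DDIT4 had the smallest p in HBL-1. It read 5.77 and 5.65 uninduced and 7.15 and 7.59 induced, and the ranges did not overlap. The difference was 1.66 ± 0.50, with a 95% interval from 0.57 to 2.74 (unadjusted p = 0.0062, adjusted p = 0.218). SLC2A1 read 8.68 and 8.59 uninduced and 9.29 and 9.27 induced, a difference of 0.64 ± 0.23 (95% interval from 0.14 to 1.13, adjusted p = 0.334). EGLN1 read 7.87 and 7.82 uninduced and 8.27 and 8.22 induced, a difference of 0.40 ± 0.15 (95% interval from 0.07 to 0.74, adjusted p = 0.371). Both genes were higher on both induced arrays. P4HA1, with 8.67 and 8.66 uninduced and 9.13 and 9.63 induced, and KDM3A, with 7.83 and 7.89 uninduced and 8.46 and 8.73 induced, were also higher on both induced arrays, by 0.71 ± 0.30 and 0.74 ± 0.33. SLC16A4, P4HA2 and BNIP3, the 3 largest falls of U-H01, differed here by 0.43, -0.11 and 0.53. SLC16A4 and P4HA2 were already below the array median in uninduced HBL-1, so a fall may have been hard to measure.

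The HBL-1 counts depended on how the spread was estimated. Without labelled induced replicate 3 of U-H01, which enters only the shared spread, 2 genes passed in HBL-1, DDIT4 (adjusted p = 0.000862) and KDM3A (adjusted p = 0.0476), and 0.646% of all genes passed. That array was singled out for low values in these genes, DDIT4 and KDM3A among them, so their smaller spread follows from the choice. With the HBL-1 arrays fitted alone, on 1 residual degree of freedom, 8 rose: DDIT4, KDM3A, P4HA1, SLC2A1, PFKFB4, BNIP3, SLC16A4 and EGLN1. In that fit 4.71% of all genes passed, and 2.7% were higher. Of the 18 measured genes that rose in U-H01, 13 (72.2%) had a difference above 0 in HBL-1, against 48.8% of all genes that rose in U-H01. Of the 8 that fell in U-H01, 5 (62.5%) were above 0 in HBL-1, against 49.1% of all that fell.

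**Figure D4:**
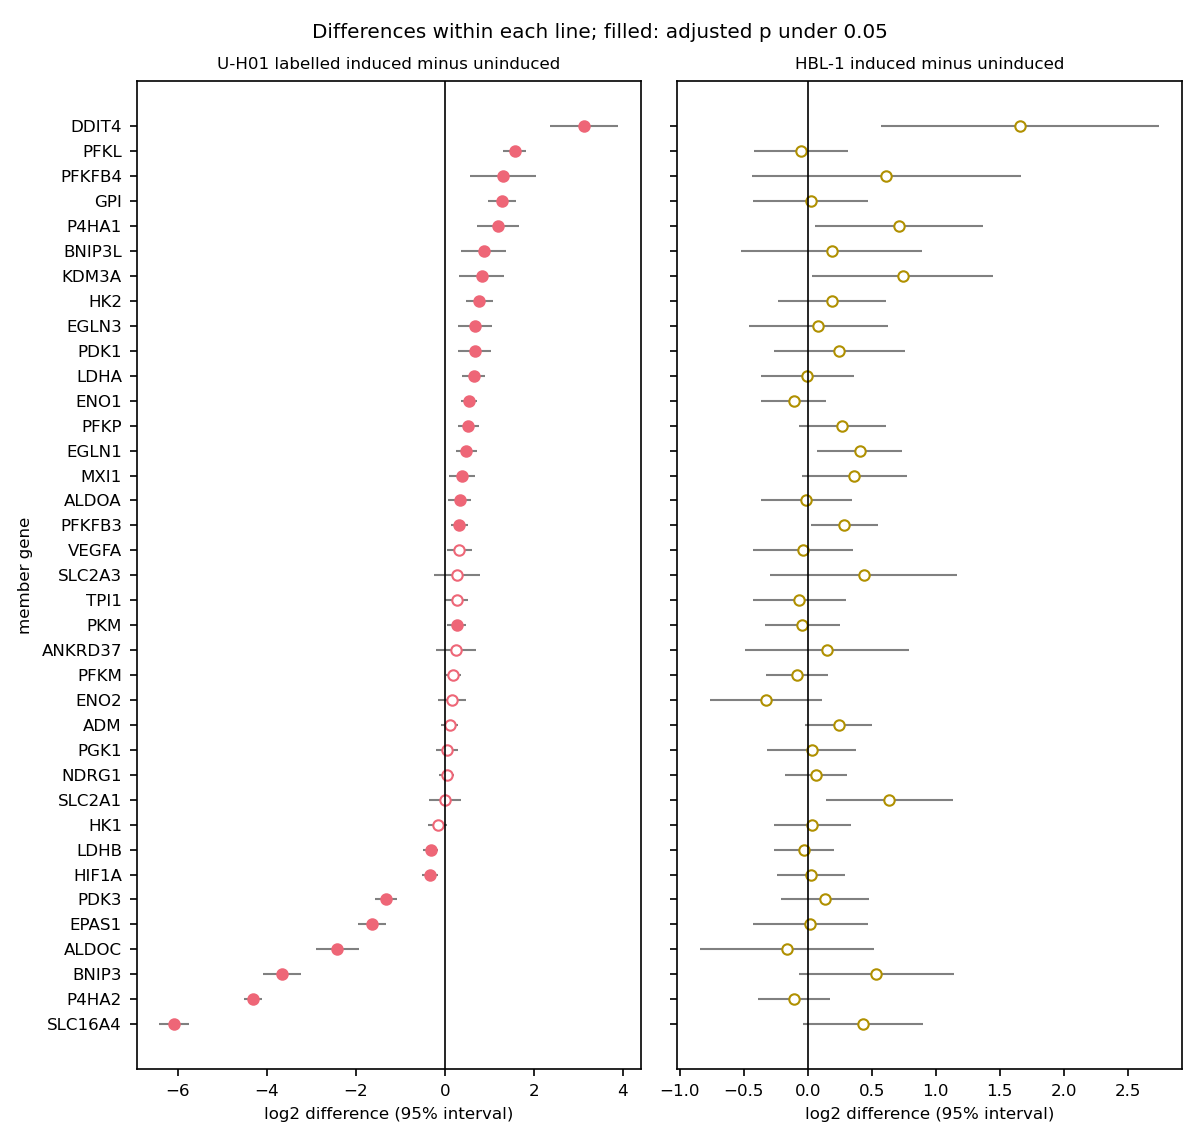
Log2 difference between arrays labelled induced and uninduced in each line with its 95% interval, ordered by the U-H01 difference; filled points have an adjusted p under 0.05, and the 2 panels have different horizontal scales. In U-H01 18 points are filled above 0 and 8 below, in HBL-1 none of the 37 is filled, and DDIT4 is the highest in both.

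The labelled induced minus uninduced difference in U-H01 less that in HBL-1 passed in 10 of the 37 genes, 4 higher and 6 lower, and in 32.4% of all genes, 15.4% higher and 17% lower. The higher ones were all glycolytic enzymes: PFKL by 1.63 ± 0.21, GPI by 1.26 ± 0.25, ENO1 by 0.66 ± 0.14 and LDHA by 0.65 ± 0.20. The lower ones were SLC16A4 (-6.51 ± 0.26), P4HA2 (-4.20 ± 0.16), BNIP3 (-4.19 ± 0.34), ALDOC (-2.25 ± 0.38), EPAS1 (-1.65 ± 0.25) and PDK3 (-1.45 ± 0.19). SLC16A4, P4HA2 and EPAS1 averaged below the array median in uninduced HBL-1, so a fall in that line may have been hard to measure. Their averages there, 4.83, 4.84 and 5.34, were above the lower quartile of 4.25, and how large a fall could be measured was not tested. For DDIT4 the difference between the lines was 1.47 ± 0.61 (adjusted p = 0.0893) and did not pass, but without labelled induced replicate 3 it was 2.05 ± 0.20 (adjusted p = 9.55e-06). LDHA missed the threshold without uninduced or labelled induced U-H01 replicate 1 or any 1 of the HBL-1 arrays (adjusted p from 0.0533 to 0.141). Without labelled induced replicate 3 the count was 19, with 13 higher, where 31.6% of all genes passed and 15.3% were higher. As that array was singled out for low values in these genes, neither this count nor the DDIT4 call without it is separate support.

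Uninduced U-H01 differed from uninduced HBL-1 in 20 of the 37 measured genes, 9 higher and 11 lower, where 42.8% of all genes passed, 20.7% higher and 22.1% lower. All 3 measured transporters were higher in U-H01, and 7 of 15 glycolytic enzymes were lower with 1 higher. The 4 largest excesses in U-H01 were SLC16A4 (6.34 ± 0.19, 81.2-fold), P4HA2 (3.99 ± 0.11, 15.9-fold), SLC2A3 (2.58 ± 0.29, 5.97-fold) and PDK3 (1.77 ± 0.14, 3.41-fold). SLC16A4 read 4.90 and 4.76 and P4HA2 4.73 and 4.95 in uninduced HBL-1, levels below the array median. SLC2A3 read 9.30, 9.31, 9.13 and 9.11 in U-H01 and 6.97 and 6.30 in HBL-1, and its difference was 3.24 without uninduced HBL-1 replicate 1 and 1.91 without replicate 2. PDK3 read 6.75 and 6.78 in HBL-1, below every U-H01 array. EPAS1 (5.35 and 5.33 in HBL-1) was higher in U-H01 by 1.71 ± 0.18 and HIF1A (9.13 and 9.25 in HBL-1) by 0.71 ± 0.11.

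The 4 largest deficits of uninduced U-H01 against HBL-1 were close in size. GPI, with 11.63 and 11.71 in HBL-1, was lower in U-H01 (-1.09 ± 0.18). NDRG1, a stress-induced gene of differentiation, read 5.60, 5.91, 5.69 and 5.92 in U-H01 and 6.74 and 6.87 in HBL-1 (-1.03 ± 0.10). PFKFB3 read 6.60, 6.55, 6.78 and 6.83 in U-H01 and 7.65 and 7.73 in HBL-1 (-1.0 ± 0.10). HK2 read 8.85, 9.00, 9.28 and 9.23 in U-H01 and 10.10 and 10.08 in HBL-1 (-1.0 ± 0.17). None of these 4 had overlapping ranges. Of the 20 calls between the uninduced lines 7, those of BNIP3, BNIP3L, EGLN1, LDHA, PFKL, SLC2A1 and TPI1, were lost without 1 or either of the uninduced HBL-1 arrays, EGLN1 also without uninduced U-H01 replicate 1, 3 or 4 and TPI1 without uninduced U-H01 replicate 1 or 2.

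The U-H01 arrays labelled induced differed from the same 2 uninduced HBL-1 arrays in 21 of the 37 genes, 13 higher and 8 lower, where 38.4% of all genes passed, 17.4% higher and 21% lower. This comparison shares its HBL-1 arrays with that of the uninduced lines and its U-H01 arrays with that of labelled induced against uninduced U-H01, so the 3 are not independent. DDIT4 was higher by 3.62 ± 0.43 (12.3-fold), SLC2A3 by 2.86 ± 0.29 (7.27-fold), P4HA1 by 1.38 ± 0.26 and PFKFB4 by 1.37 ± 0.42. SLC2A3 read 9.73, 9.57, 8.66 and 10.03 in labelled induced U-H01, all above both HBL-1 arrays. Its difference was 3.53 without uninduced HBL-1 replicate 1 and 2.20 without replicate 2. PFKFB4, with 6.91 and 6.98 in HBL-1, overlapped them through replicate 3. BNIP3 was 22.5-fold lower (-4.49 ± 0.24), with 9.09 and 9.10 in HBL-1, and ALDOC 8.46-fold lower (-3.08 ± 0.27), with 9.03 and 9.12 in HBL-1. NDRG1, at 5.59, 6.05, 5.73 and 5.91, and HK1, at 7.69, 7.62, 7.50 and 7.93 against 8.48 and 8.53, were lower with differences of -0.99 ± 0.10 and -0.82 ± 0.12. SLC16A4, EPAS1 and GPI, which stood apart between the uninduced lines, differed here by 0.27, 0.08 and 0.19, with adjusted p-values of 0.325, 0.805 and 0.477. The count was 13 without uninduced HBL-1 replicate 2, and P4HA1 then missed the threshold (adjusted p = 0.0787). PFKFB4 missed it without labelled induced replicate 1, 2 or 4 or either uninduced HBL-1 array (adjusted p from 0.0533 to 0.217). Without labelled induced replicate 3 the DDIT4 excess was 4.20 ± 0.15 and that of PFKFB4 1.93 ± 0.13. Both genes were among those low in that array, so the larger excess follows from leaving it out.

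Genes of neighbouring pathways were counted between labelled induced and uninduced U-H01 for context, where 45.8% of all genes passed. Their lists were chosen by name, with earlier results of these data known. Of 21 other glycolysis genes 3 rose and 5 fell. The rises were LDHC, the testis lactate dehydrogenase (1.77), ENO3, the muscle enolase (1.54), and SLC2A5, a fructose transporter (0.52), and the larger falls PFKFB2 (-2.14) and PDK2 (-2.01). LDHC stayed below the array median in both groups, with averages of 3.87 uninduced and 5.64 labelled induced. GAPDH differed by 0.19 (adjusted p = 0.101). Of 25 genes of pyruvate entry and the citrate cycle 14 rose and 4 fell, led by PDP1, the phosphatase that reactivates pyruvate dehydrogenase (2.54), and DLST (1.17), and by IDH2 (-4.10) and ACO1 (-3.63), enzymes of isocitrate handling. The pentose phosphate list had 3 of 7 higher and 0 lower, and glycogen and gluconeogenesis 4 of 15 higher and 4 lower. Of 30 other hypoxia pathway genes 8 rose and 6 fell, led by RORA, a nuclear receptor (5.16), and TFRC, the transferrin receptor (1.33), and by AK4, a mitochondrial adenylate kinase (-4.24), and PLIN2, a lipid droplet protein (-1.73). In HBL-1 IDH1 (0.87, adjusted p = 0.0171) and CXCR4, a chemokine receptor (1.0, adjusted p = 0.0123), were the genes of these lists that passed.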

How the data were processed

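The values deposited by the authors are log2 expression levels. The submitters' processing notes name Partek and RMA, without versions. RMA's quantile step can hide a shift of all genes one way. Of 33297 probe sets the 19460 annotated to 1 symbol were tested, for 18417 genes. No 2 arrays held identical values. Groups came from the sample titles. One linear model over the 12 arrays was fitted in limma 3.58.1 under R 4.3.3 (lmFit and eBayes), with the 4 groups, the population within U-H01 and the time point within each line, 7 terms in all and 5 residual degrees of freedom. To compare B1 with B2, the induction term of U-H01 was split by population, giving 8 terms. Tests were two-sided, with Benjamini-Hochberg adjustment over all probe sets tested and calls at an adjusted p under 0.05. Fits were checked on simulated data. All groups share 1 estimate of spread, and the precision is limited by the number of arrays.

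Per the labels' protocols, induced and uninduced cells were parts of 1 transduced population, which pairs arrays by population and time point. Over the 6 pairs, the correlation of both arrays' deviations from their means lay between -0.02 and 0.14. The 2 HBL-1 pairs gave the same value, 0.09, by construction, since each group there has 2 arrays. The genes and lists were chosen with earlier results of these data known. Values in every array were given for the 5 largest rises and falls past the threshold in U-H01, the 4 largest each way between the lines, the 3 smallest p-values in HBL-1, and HIF1A and EPAS1; BNIP3L, PDK3, P4HA1 and KDM3A in HBL-1, the cell identity markers named with values and 2 of the promoters were added after values were seen. Plots were made in Python 3.11.15 with matplotlib 3.10.9. Alternatives tried were the replicate block, other terms, other probe set filters, moderation settings, each line alone and leaving out each array in turn.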

Additional observations from a re-analysis of the deposited data

Results flagged for a closer look

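In 74 groups of 4 arrays, each of 37 genes in both U-H01 groups, 2 held a value far from the other 3. Chance gives about 1 in 20, so these 2 are no more than chance would give. Both were of PFKL: uninduced replicate 1 at 8.05, below 8.30 to 8.34, and labelled induced replicate 3 at 9.38, below 9.92 to 10.02.

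The labelled induced minus uninduced difference was unlike between U-H01 and HBL-1 by the interaction test in 10 genes. On the log2 scale the U-H01 difference minus the HBL-1 difference was 1.63 for PFKL, 1.26 for GPI, 0.66 for ENO1 and 0.65 for LDHA. It was -6.51 for SLC16A4, -4.20 for P4HA2, -4.19 for BNIP3, -2.25 for ALDOC, -1.65 for EPAS1 and -1.45 for PDK3. For SLC16A4, P4HA2 and EPAS1 the uninduced HBL-1 level was below the array median, which may have left little room for a fall in that line. Between the U-H01 populations the B2 difference minus the B1 difference was -1.27 for ALDOC, -1.23 for BNIP3 and 0.91 for SLC16A4.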

How the results depend on the processing

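None of the differences called in the report changed sign under any alternative run. Nor did the 11 followed in HBL-1, which were those of ADM, BNIP3, DDIT4, EGLN1, KDM3A, MXI1, P4HA1, PFKFB3, PFKFB4, SLC16A4 and SLC2A1. In all 11, both induced arrays were above the uninduced array of the same time point. Leaving out 1 HBL-1 array leaves the difference of the other pair, so it could not have changed their sign. Genes with pairs of opposite sign, such as SLC2A3, ALDOC and GPI, were not followed. With the pairing as a replicate block the counts were 26 genes in U-H01, 0 in HBL-1, 10 for the difference between the lines and 3 for that between populations, the same numbers as without it. The block ended the call of PKM (adjusted p = 0.0525), added VEGFA (adjusted p = 0.0347) and changed no other call. Leaving out each array in turn gave 23 to 30 genes called in U-H01, 0 to 2 in HBL-1, 14 to 25 between the uninduced lines, 13 to 25 between labelled induced U-H01 and HBL-1, 9 to 19 for the difference between the lines' changes, 0 to 6 for B2 against B1 changes, 2 to 10 for uninduced B2 against B1, and 0 to 0 for time points. Where this left 1 array in an HBL-1 group, that array was assumed to vary like the others. HBL-1 fitted alone gave 8. For B2 against B1 changes, moderation with trend and robust settings gave 5 and testing all probe sets 0. For uninduced B2 against B1, testing all probe sets gave 3 and U-H01 alone 5. The causes of these shifts were not tested. Of the 26 genes called in U-H01, 22 held their call in every alternative, and ALDOA, PKM, MXI1 and HIF1A lost it in some. Calls were lost in some alternative by 7 of 20 genes between the uninduced lines and by 10 of 21 between labelled induced U-H01 and HBL-1. Testing the brighter probe sets alone left out EGLN3, EPAS1, NDRG1 and P4HA2, and the block could not be fitted between lines or time points. The alternatives for uninduced B2 against B1 and for the use of labelled induced replicate 3 beside the results were chosen after seeing the data.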
